A study of Mus musculus with 9 samples.

Results

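Line H8 of mouse embryonic stem cells was set against line G6, names given by the labels. Both carry the genotype Hnrnpll-/-, and each was sequenced once as stem cells (day 0) and once as embryoid bodies at day 4 and at day 8. The comparison therefore rests on 6 of the 9 libraries of the series, 3 of line H8 and 3 of line G6, paired by day. The remaining 3 libraries are wild type, 1 at each day. They enter no test between the lines except the alternative fits that use all 9 libraries. Genes were taken as tested when they passed a filter on low counts, which 23958 of 49326 named genes did.

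PolyA+ RNA was sequenced from stem cells grown in serum with leukemia inhibitory factor and from bodies formed in hanging drops. The Hnrnpll protein belongs to the hnRNPs, which bind pre-mRNA, and is best known for regulating alternative splicing in lymphocytes. Embryoid bodies are aggregates in which stem cells leave the pluripotent state and begin to form germ layers, passing through a stage that resembles the primitive streak. The labels do not say whether each line is 1 clone. Each line stands for itself only: 1 library per line and day gives no replicate of a line within a day. P-values of the line difference below measure whether it repeated over the 3 days. The test of a departure at day 0 has another spread, given with it.

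Total counts were 61626609, 137745816 and 184952442 in H8 at day 0, 4 and 8, against 54218051, 126467666 and 154674240 in G6, so the day 0 libraries of both lines were the shallowest. Hnrnpll itself was at 24.5, 38.6 and 43.5 TPM (a transcript level scaled to gene length and to library size) in H8 at day 0, 4 and 8, at 54.9, 61.2 and 56.5 TPM in G6, and at 77.1, 101 and 112 TPM in wild type. Both lines were below wild type and H8 was below G6 at every day, with a line difference of -0.69 on the log2 scale (SE 0.15, adjusted p = 0.272, edgeR), which did not pass the threshold. A level per gene does not show whether the targeted part of the transcript is present. The stem cell factor Pou5f1 was at 1761, 1161 and 1013 TPM in H8, at 1953, 1025 and 1088 TPM in G6, and at 1372, 1060 and 178 TPM in wild type, so that bodies of both lines at day 8 still held a level that wild-type bodies did not. Transcripts of the Y chromosome were near 0 in both lines: Eif2s3y, a translation factor gene, was at 1.54, 0.02 and 0 TPM in H8 and at 2.15, 0.05 and 0 TPM in G6, against 129, 82.2 and 134 TPM in wild type. Whether the wild-type cells are the parents of the knockout lines is not given in the labels, so a distance from wild type below does not show which line changed.

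Most genes were at like levels in both lines: of 11815 genes with a mean of at least 5 TPM, 70.9%, 88.6% and 86.7% lay within 0.5 of each other on the log2(TPM + 1) scale at day 0, 4 and 8. The test of a line difference that holds over the 3 days (edgeR quasi-likelihood, Benjamini-Hochberg adjusted p under 0.05) called 1 gene, Wnk3, which was lower in H8, and none that was higher; that is 0.00417% and 0% of 23958 genes. At an unadjusted p under 0.05, 1331 genes were higher in H8 (5.56%) and 818 lower (3.41%), and DESeq2 called 538 higher and 279 lower after adjustment. The common biological coefficient of variation around the line difference was 0.306, with 2 residual degrees of freedom. No gene was at 5 TPM or more in all 3 libraries of a line and at 0.5 TPM or less in all 3 of the other line.

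Wnk3, on chromosome X (mm10, chrX, start 151198078), encodes a kinase that regulates cation-chloride cotransporters. It was at 0.28, 0.81 and 0.51 TPM in H8 at day 0, 4 and 8, against 10.2, 9.48 and 8.01 TPM in G6, with 13.2, 5.77 and 10.02 TPM in wild type. The 3 values of H8 all lay under 1 TPM, and those of G6 lay among those of wild type. The fitted line difference was -4.10 on the log2 scale (SE 0.18, adjusted p = 0.0362), so Wnk3 fell 17.2-fold in H8. The call was lost with the day 4 pair left out (adjusted p = 0.271), with total count scaling (0.0572), with no filter (0.103) and on the log2(TPM + 1) and log2(TPM + 0.1) scales (0.0714 each), with the sign kept in all of these. The gene overlaps another annotated gene.

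Most line differences over 2-fold at all 3 days lay in blocks of neighbouring genes. When 10443 protein-coding genes with a mean of at least 5 TPM were put in chromosome order and a median was taken over 11 neighbours at a time, 6 runs of at least 15 genes had a line difference of at least 0.15 (log2(TPM + 1), centred on the median gene for the search) with 1 sign at all 3 days. Runs of 1 sign were joined across gaps of up to 20 genes, so a joined run can hold stretches under the limit. The runs lie on chromosomes 2, 4, 10, 14 (a pair of runs) and 15, and hold 822 genes, 7.87% of those measured. The rule and its limits were chosen after the line differences had been seen, and the runs were found from the line difference itself, so their genes' values are a description and carry no test. Of 42 genes that differed by more than 2-fold in 1 direction at all 3 days, with a mean of at least 5 TPM in the higher line, 32 lay inside the runs and 26 on chromosome 14. In the runs, 517 of 822 genes (62.9%) had an unadjusted p under 0.05, against 8.97% of all genes tested, and DESeq2 placed 389 of its 817 calls (47.6%) inside runs that hold 6.93% of the genes it tested. A large share inside the runs follows in part from their choice by the same difference, so none of these shares tests them. The 8.97% also covers low and non-coding genes, which the 822 genes leave out.

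**Figure D1:**
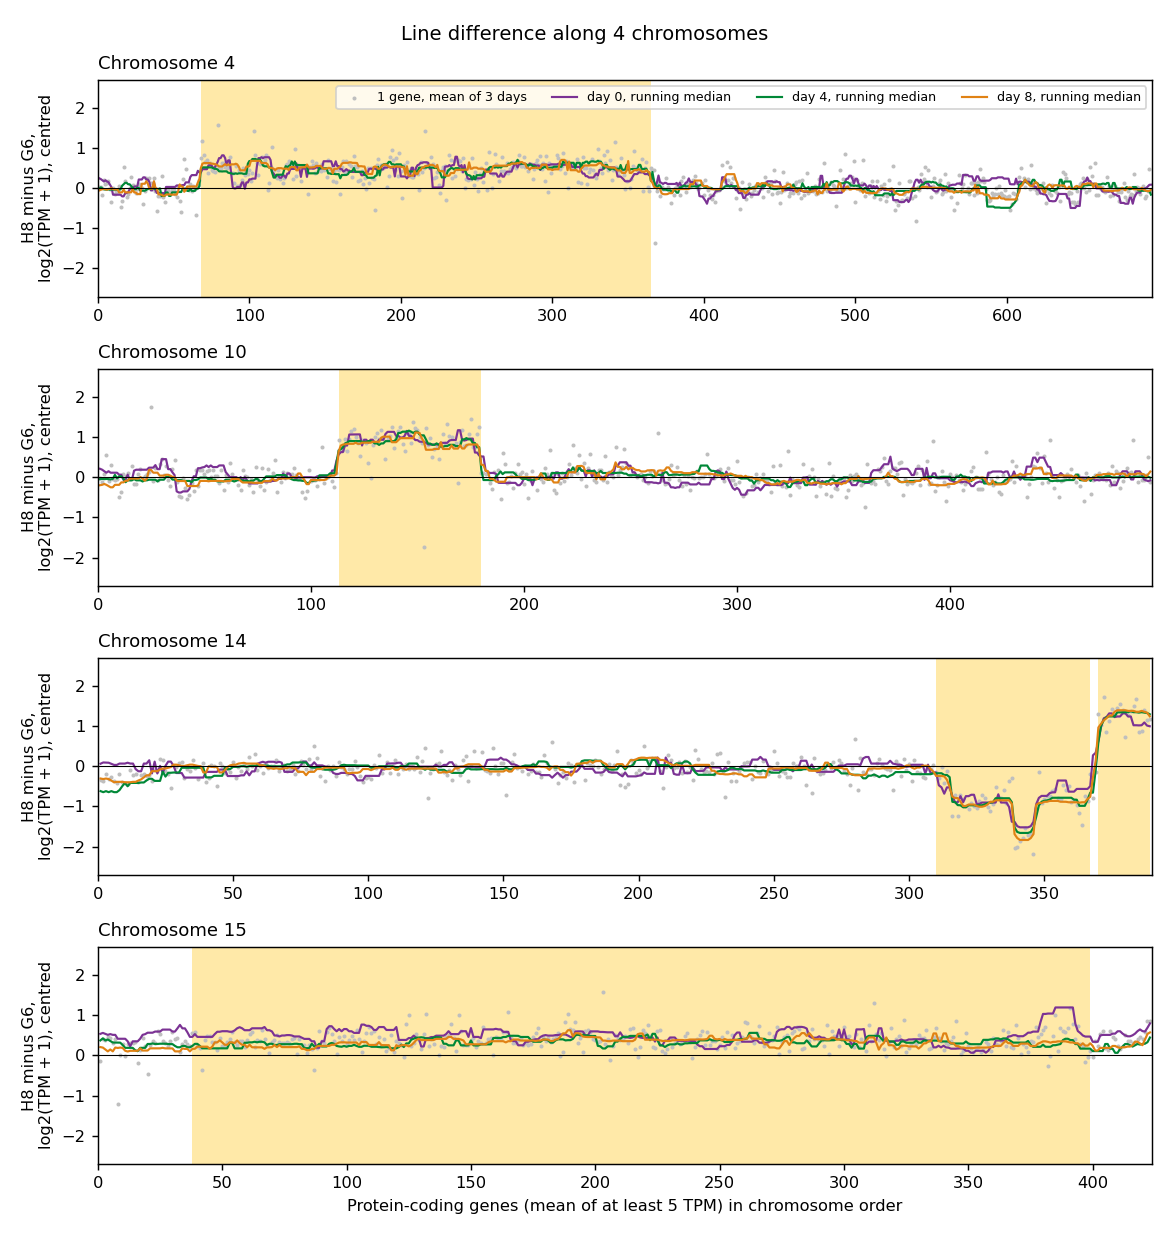
Line difference (H8 minus G6 in log2(TPM + 1), centred on the median gene of each day) of protein-coding genes in chromosome order. Grey points are single genes (mean of 3 days), coloured lines are running medians over 11 genes at day 0, 4 and 8, points beyond the axis are drawn at its edge, and shading marks the runs; the 3 lines step together at the edges of the runs on chromosomes 4, 10 and 14.

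The distal part of chromosome 14 held a pair of runs, where H8 was lower over one stretch and higher over the next. From Nudt18 to Spry2 (chr14:70577637-105896819, mm10, 35.3 Mb) 58 measured genes had a median difference of -0.85, -0.95 and -0.88 at day 0, 4 and 8, and 51 of them were lower in H8 at all 3 days. The summed level of these genes was 4695, 5109 and 5041 TPM in H8, against 8021, 10124 and 9468 TPM in G6 and 5084, 4554 and 5366 TPM in wild type. H8 was nearer wild type than G6 was, and G6 lay above both, at every day. Of the 10443 protein-coding genes searched, 24.8% were lower in H8 at all 3 days and 14.3% higher, and of all 23958 genes tested 19.8% were lower and 13.5% higher.

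Within that stretch, 8 consecutive measured genes from Naa16 to Diaph3 (chr14:79325269-87141235) had larger differences, with medians of -1.89, -1.81 and -1.89, against -0.80, -0.91 and -0.85 in the other 50 genes of the run. These 8 genes were picked after their values had been seen, so the contrast follows in part from that choice and carries no test. Naa16, an auxiliary subunit of an N-terminal acetyltransferase, was at 17.0, 27.4 and 15.9 TPM in H8 at day 0, 4 and 8, against 79.5, 106 and 76.6 TPM in G6, with 24.1, 22.1 and 20.8 TPM in wild type. Sugt1, a co-chaperone of HSP90, was at 164, 127 and 141 TPM in H8, against 499, 419 and 539 TPM in G6, with 187, 123 and 135 TPM in wild type. In both genes the 3 values of G6 stood apart from the 6 values of H8 and wild type, which overlapped each other.

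Diaph3, a formin that nucleates actin filaments, was at 26.3, 16.4 and 18.4 TPM in H8, against 95.8, 98.2 and 99.4 TPM in G6. Mtrf1, a release factor of mitochondrial translation, was at 11.97, 8.98 and 7.75 TPM in H8, against 64.6, 34.4 and 35.3 TPM in G6. The other 4 genes are Kbtbd7 and Kbtbd6, adaptors of cullin ubiquitin ligases, Wbp4, a splicing-associated protein, and Elf1, an ETS transcription factor, and their log2 differences ran from -1.49 to -2.13 over the 3 days. The fitted differences of the 8 genes lay between -1.58 (Wbp4) and -2.26 (Diaph3) with SE of 0.12 to 0.20, and none passed the threshold (adjusted p between 0.0612 and 0.104, edgeR). Nearer the start of the run, Rb1, the retinoblastoma cell-cycle repressor, was at 8.25, 22.2 and 15.2 TPM in H8, against 19.95, 64.3 and 35.8 TPM in G6 (-1.31 on the log2 scale, SE 0.14, adjusted p = 0.122).

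Beyond it the sign turned. From Tgds to Tmtc4 (chr14:118111911-122984035, 4.87 Mb) all 20 measured genes were higher in H8 at all 3 days, with medians of 1.10, 1.28 and 1.35. Their summed level was 1109, 1252 and 1082 TPM in H8, against 429, 478 and 417 TPM in G6 and 843, 966 and 931 TPM in wild type, so G6 was below both at each day. Ipo5, a nuclear import receptor, was at 387, 471 and 352 TPM in H8, against 166, 161 and 130 TPM in G6, with 367, 331 and 221 TPM in wild type. Stk24, a kinase of the Ste20 family, was at 80.6, 85.8 and 81.7 TPM in H8, against 30.7, 33.1 and 31.1 TPM in G6, with 61.1, 79.1 and 97.97 TPM in wild type. The values of G6 were below all others in both genes; the line differences were 1.45 (SE 0.11) and 1.43 (SE 0.10), with an adjusted p of 0.0612 each (edgeR).

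Further members of this run were Tm9sf2, a membrane protein of endosomes and Golgi, with a difference of 1.47, and Mbnl2, a muscleblind splicing regulator, also with 1.47. Farp1, a guanine nucleotide exchange factor, had 1.69, the mitochondrial lyase Clybl 1.70 and the dehydratase Tgds 1.43. Their SE ran from 0.12 to 0.22 and none passed the threshold (adjusted p of 0.0749 to 0.146, edgeR).

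The host transcript of the miR-17-92 cluster, Mir17hg, lies between the runs (chr14, start 115042879) and was looked up after the runs had been seen. Its 6 mature miRNAs, processed from that single transcript, repress many mRNAs and are known for promoting proliferation and survival. They fall into 4 seed groups, and the sequences (RefSeq, GRCm38.p6, plus strand) are given because they show what the transcript encodes; capitals mark the seed, bases 2 to 8.
mmu-miR-17-5p: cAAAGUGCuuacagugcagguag
mmu-miR-20a-5p: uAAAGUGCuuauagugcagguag
mmu-miR-18a-5p: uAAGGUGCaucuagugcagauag
mmu-miR-19a-3p: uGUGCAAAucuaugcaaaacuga
mmu-miR-19b-3p: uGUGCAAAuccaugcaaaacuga
mmu-miR-92a-3p: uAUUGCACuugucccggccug
miR-17-5p and miR-20a-5p share a seed, as do miR-19a-3p and miR-19b-3p. Mir17hg was at 40.6, 32.3 and 25.6 TPM in H8 at day 0, 4 and 8, against 7.41, 14.9 and 13.4 TPM in G6, with 55.0, 39.3 and 30.6 TPM in wild type. H8 was above G6 and below wild type at every day; the line difference was 1.53 (SE 0.34, adjusted p = 0.274, edgeR). Mature miRNAs are not measured in polyA+ libraries, and Mir17hg overlaps the miRNA genes it hosts.

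**Figure D2:**
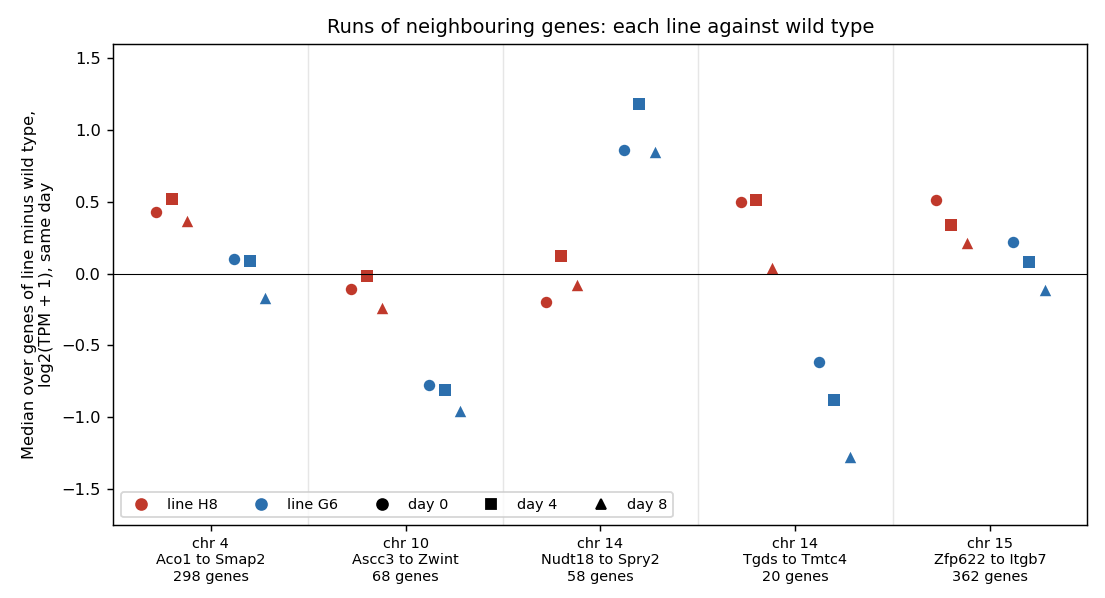
Median over the genes of each run of line minus wild type (log2(TPM + 1), same day), for H8 and G6 at day 0, 4 and 8. G6 lies away from wild type on chromosomes 10 and 14, from -1.28 to 1.18, and H8 lies above wild type on chromosomes 4 and 15, by 0.22 to 0.52. The split is not clean: H8 is also above wild type from Tgds to Tmtc4 on chromosome 14, by 0.50, 0.51 and 0.04 at day 0, 4 and 8. On chromosome 15 G6 is above it by 0.22 at day 0. The run on chromosome 2 is not drawn.

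On chromosome 10, 68 measured genes from Ascc3 to Zwint (chr10:50592669-72674964, 22.1 Mb) were higher in H8, with medians of 0.82, 0.84 and 0.87, and 60 of them had that sign at all 3 days. Their summed level was 4008, 4034 and 3588 TPM in H8, against 2236, 2327 and 2022 TPM in G6 and 4110, 3828 and 4281 TPM in wild type. Here too G6 was farther from wild type: the median distance, averaged over days, was -0.12 for H8 and -0.87 for G6. The 20 measured genes on either side had medians between -0.14 and 0.01.

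The run includes genes with known roles in stem cells, named here after their values had been seen. Tet1, a dioxygenase that oxidises 5-methylcytosine, was at 129, 37.4 and 62.5 TPM in H8, against 79.0, 25.03 and 38.3 TPM in G6, with 113, 18.4 and 22.5 TPM in wild type. Sirt1, a protein deacetylase, was at 99.1, 38.5 and 50.9 TPM in H8, against 28.2, 14.5 and 31.4 TPM in G6. Cdk1, the kinase that drives mitosis, was at 108, 109 and 140.0 TPM in H8, against 79.0, 52.7 and 84.5 TPM in G6. Each was higher in H8 at every day, with fitted differences of 0.74 (SE 0.10), 1.37 (SE 0.25) and 0.76 (SE 0.14) and adjusted p-values of 0.146, 0.234 and 0.235 (edgeR). Nodal, the TGF-beta family ligand of the primitive streak, lies in the run as well and was at 68.9, 98.4 and 61.2 TPM in H8, against 22.1, 43.2 and 33.9 TPM in G6. Srgn, a proteoglycan core protein, was the member that differed most in the other direction, with a mean difference of -1.80 over the days.

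Longer and shallower runs lay on chromosomes 4 and 15, and there H8 was the line farther from wild type, and above it. On chromosome 4, 298 genes from Aco1 to Smap2 (chr4:40143081-121017247, 80.9 Mb) had medians of 0.35, 0.45 and 0.54, and 207 were higher in H8 at all 3 days. They summed to 33083, 33250 and 32338 TPM in H8, against 24985, 23622 and 22854 TPM in G6 and 24318, 22897 and 23141 TPM in wild type. On chromosome 15, 362 genes from Zfp622 to Itgb7 (chr15:25984366-102231944, 76.2 Mb) had medians of 0.36, 0.27 and 0.33, and 242 were higher in H8 at all 3 days. They summed to 39718, 36163 and 36689 TPM in H8, against 30118, 29209 and 28577 TPM in G6 and 29255, 29972 and 29813 TPM in wild type.

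The 20 genes on either side of the run on chromosome 4 had medians between -0.15 and 0.01. Low values there follow in part from the rule, since a run ends where the running median falls under the limit. With other windows and limits the run started between 34663257 and 40143081 and ended between 118432953 and 121017247. On chromosome 15 the 20 genes before and after the run still had positive medians, between 0.15 and 0.51. Over the whole of chromosome 15 (460 genes with a mean of at least 5 TPM) the median was 0.36, 0.24 and 0.30 at day 0, 4 and 8. The other chromosomes except 4 had medians between -0.18 and 0.03.

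Examples on chromosome 4 are Aqp3, a water and glycerol channel, at 62.0, 52.1 and 56.1 TPM in H8, against 24.7, 13.3 and 21.4 TPM in G6, and Tesk1, a kinase that acts on cofilin, at 11.9, 27.5 and 17.7 TPM in H8, against 4.08, 9.91 and 6.37 TPM in G6. Klf4, a factor of naive pluripotency, was at 699.9, 18.9 and 108 TPM in H8, against 289, 19.2 and 68.0 TPM in G6, so it did not follow the run at day 4. On chromosome 15, the epithelial keratin Krt8 was at 98.03, 187 and 976 TPM in H8, against 34.1, 101 and 483 TPM in G6. Myc, a proliferation factor, was at 16.0, 24.7 and 21.3 TPM in H8, against 9.67, 18.7 and 13.6 TPM in G6. Wild type was at 273, 444 and 1014 TPM for Krt8 and at 16.5, 28.8 and 35.5 TPM for Myc. It was thus above H8 at every day in both, unlike the summed level of the run. In Aqp3, Tesk1 and Klf4 wild type was below H8 at every day. Fitted differences were 1.19 (SE 0.16, adjusted p = 0.146, edgeR) for Krt8 and 0.60 (SE 0.15, adjusted p = 0.337) for Myc.

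The smallest run, 16 genes on chromosome 2 from Gm14444 to Gm2004 (chr2:175010241-176149825), had medians of -0.38, -0.41 and -0.22. The 20 measured genes after it had medians of -0.35, -0.44 and -0.15 and the 20 before it -0.34, -0.03 and -0.02, so its edges were not sharp. Its members are predicted genes and the zinc finger genes Zfp965, Zfp966, Zfp968 and Zfp969, among them near-identical copies, which reads may be split between, so their values are uncertain.

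Outside the runs, few genes differed by more than 2-fold at all 3 days. Slc11a1, a metal transporter of macrophage phagosomes, was at 24.9, 3.51 and 12.4 TPM in H8 at day 0, 4 and 8, against 3.30, 0.59 and 2.09 TPM in G6, with 2.66, 0.51 and 1.0 TPM in wild type. S100a13, a calcium-binding protein, was at 32.2, 54.0 and 59.4 TPM in H8, against 6.13, 17.1 and 22.6 TPM in G6. Plagl1, an imprinted zinc finger gene, was at 13.4, 22.0 and 48.2 TPM in H8, against 4.49, 5.95 and 11.7 TPM in G6, with 23.3, 7.64 and 224 TPM in wild type. Both lines followed the same course in these genes, with H8 above G6 at each day; the fitted differences were 3.03 (SE 0.32), 1.85 (SE 0.26) and 1.73 (SE 0.20), and none passed the threshold (adjusted p of 0.122, 0.146 and 0.123, edgeR).

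In the other direction, Cubn, an endocytic receptor of the visceral endoderm, was at 0.50, 1.40 and 4.67 TPM in H8, against 5.78, 23.5 and 15.8 TPM in G6. Dmrt1, a transcription factor of the germline and testis, was at 5.23, 9.67 and 4.33 TPM in H8, against 16.3, 22.2 and 18.9 TPM in G6, with 38.1, 6.57 and 2.68 TPM in wild type. Neither passed the threshold (-3.07, SE 0.47 and -1.59, SE 0.24; adjusted p = 0.167 each, edgeR). Of the 24 genes named for a difference at all 3 days, wild type lay nearer H8 in 18 and nearer G6 in 6. However, 18 of the 24 lie in the runs, many of them as neighbours, so they are not separate observations. Of the 6 outside the runs, wild type lay nearer H8 in Plagl1, Cubn and Dmrt1 and nearer G6 in Wnk3, Slc11a1 and S100a13. Among all searched genes outside the runs it lay nearer H8 in 58.6%.

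**Figure D3:**
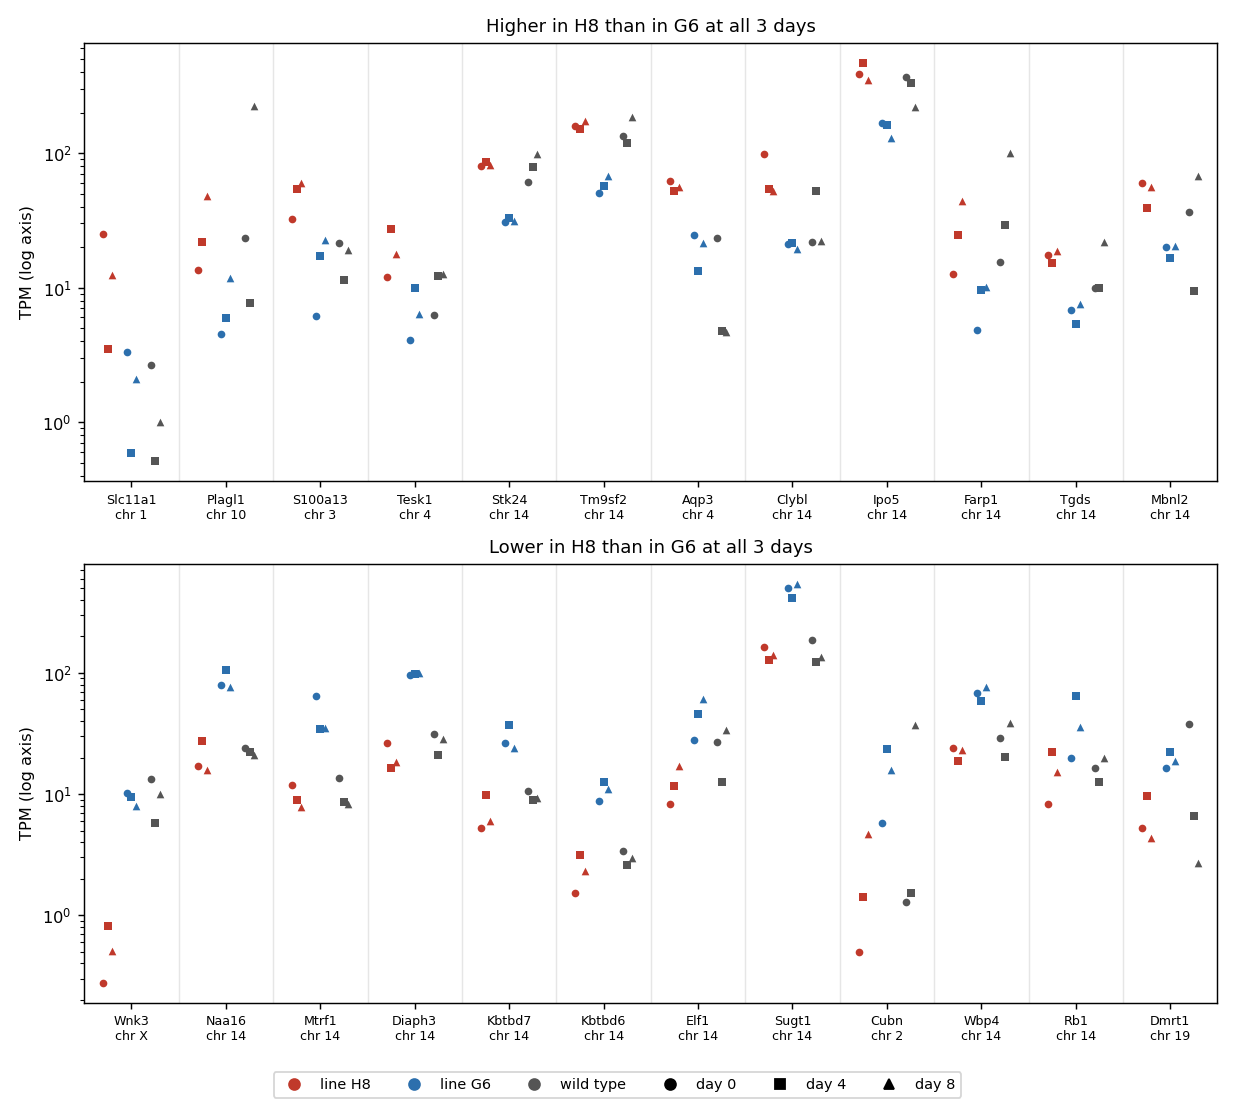
TPM (log axis) of the 24 genes with the largest differences of 1 sign at all 3 days, in H8, G6 and wild type; symbols give the day and each point is 1 library. Only Wnk3 passed the threshold, and 18 of the 24 genes lie in the runs on chromosomes 4 and 14.

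Differences over 2-fold within a day were most frequent at day 0. With at least 5 TPM in the higher library, 488 genes were over 2-fold higher in H8 at day 0 (4.14% of 11777) and 447 lower (3.8%). At day 4 the counts were 88 higher (0.723% of 12178) and 157 lower (1.29%), and at day 8 they were 273 higher (2.24% of 12173) and 115 lower (0.945%). Of the 488 and 88 genes that were higher at day 0 and day 4, 26 were shared, which is 5.33% of the day 0 list and 29.5% of the day 4 list. Of the 88 and 273 that were higher at day 4 and day 8, 41 were shared, 46.6% and 15.0% of the lists. Across 11815 genes with a mean of at least 5 TPM, the line difference at day 0 correlated weakly with that at day 4 (Pearson r = 0.20) and day 8 (0.20), and day 4 with day 8 at 0.45. In the runs the 3 values were 0.55, 0.54 and 0.80, and in the 9621 searched genes outside them 0.11, 0.14 and 0.37. The runs were chosen for 1 sign at all 3 days, so a higher correlation inside them follows in part from that rule. These correlations are across genes of the same libraries, and genes are not independent replicates. The day 0 libraries had the fewest counts, and mitochondrial genes took 3.29% of them in H8 and 2.3% in G6. That share was 2.66% in H8 and 2.59% in G6 at day 4, and 3.41% in both lines at day 8, so the lines differed most in it at day 0. The part of depth and of this share in the larger number of differences at day 0 was not tested.

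At day 0 alone, Islr2, a membrane protein of neurons, was at 4.85 TPM in H8 and 31.6 TPM in G6, and at 3.10 TPM or less in both lines later. Crabp1, a retinoic acid-binding protein, was at 6.52 TPM in H8 and 38.0 TPM in G6, and Notum, an enzyme that inactivates WNT ligands, at 4.02 TPM in H8 and 24.6 TPM in G6. Xlr5a, an X-linked gene of a multicopy family, was at 23.4 TPM in H8 and 1.05 TPM in G6. The small RNA genes Snord57, Snord50b, Mir22 and Mir18 were also selected. Mir18, the miR-18a hairpin hosted by Mir17hg, was at 16.5 TPM in H8 and 0.17 TPM in G6. They overlap other annotated genes, and their values cannot be told apart from those of their hosts.

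At day 4, T (Brachyury), the factor that marks the primitive streak, was at 78.5 TPM in H8 and 30.7 TPM in G6, with 853 TPM in wild type. At day 0 it was at 0 TPM in H8 and 0.39 TPM in G6, and at day 8 at 9.34 TPM in H8 and 7.85 TPM in G6. Gpx1, a glutathione peroxidase, was at 263 TPM in H8 and 62.0 TPM in G6 at day 4 and within 0.26 (log2) between the lines at the other days. Zmym1 (42.0 TPM in H8, 13.8 TPM in G6) and Rnd2, a small GTPase (25.1 TPM in H8, 9.80 TPM in G6), were also higher in H8 at that day. Cyp26a1, which degrades retinoic acid, was at 5.59 TPM in H8 and 15.7 TPM in G6, and Clic6, a chloride channel family member, at 3.10 TPM in H8 and 14.2 TPM in G6. Eri2 and the mitochondrial tRNA gene mt-Ti were lower in H8 too, with differences of -1.23 and -2.19.

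At day 8 alone, H8 held more RNA of several genes known from mesenchyme. Pmp22, a membrane protein of myelin and mesenchyme, was at 166 TPM in H8 and 15.1 TPM in G6, with 533 TPM in wild type. Vim, the intermediate filament of mesenchymal cells, was at 191 TPM in H8 and 40.7 TPM in G6, Cdh2, N-cadherin, at 19.9 TPM in H8 and 3.50 TPM in G6, and Igfbp4, an insulin-like growth factor-binding protein, at 39.0 TPM in H8 and 8.03 TPM in G6. Igf2, the imprinted growth factor, was at 347 TPM in H8 and 33.5 TPM in G6, with 905 TPM in wild type. Its imprinted neighbour H19 was lower in H8, at 4.26 TPM in H8 and 14.9 TPM in G6, with 986 TPM in wild type. Zfx, Trim2 and Gorab were lower in H8 at that day, with differences of -1.51, -1.45 and -1.35. For all of these, H8 and G6 were within 0.74 of each other at days 0 and 4, and 1 library per line and day allows no test.

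Gene lists were described by their counts and medians beside the same over all genes, whose median line difference was 0.00 on the log2 scale. Medians given for no single day are of the fitted differences (edgeR). Those given for a day are on the log2(TPM + 1) scale. No member of any list passed the adjusted threshold, so the counts given are of members at an unadjusted p under 0.05 (background 5.56% higher and 3.41% lower), and the members described were picked after their values were seen. In bulk libraries, fewer cells of a type and less RNA per cell cannot be told apart. The 2-cell-like list, genes that mark a rare stem cell state resembling the early embryo, had 11 of 19 tested members higher in H8 and 0 lower, with a median of 1.08. Zscan4f, the most abundant of its zinc finger family, was at 11.4, 15.6 and 28.5 TPM in H8 at day 0, 4 and 8, against 4.57, 8.27 and 17.3 TPM in G6, with 189, 22.1 and 9.17 TPM in wild type. All 6 tested Zscan4 genes were higher in H8 at each day, but they are near-identical copies and share reads, so they do not count as 6 observations.

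The primitive streak list had medians of -0.06, 0.77 and 0.80 at day 0, 4 and 8, and 6 of 20 members higher and 1 lower over the 3 days. Mixl1, a homeobox factor of the streak, was at 0.05, 9.56 and 1.92 TPM in H8, against 0.30, 0.93 and 0.93 TPM in G6. Fgf8, a streak ligand, was at 0.18, 41.6 and 5.86 TPM in H8, against 0.60, 12.3 and 2.14 TPM in G6. Eomes, another streak factor, differed little over the days, with a fitted difference of 0.03 (SE 0.35). It was at 3.05, 27.6 and 12.9 TPM in H8, against 7.75, 20.1 and 8.74 TPM in G6, so it was lower in H8 at day 0. The summed level of the list at day 0 was 170 TPM in H8 and 64.6 TPM in G6, with 144 TPM in wild type, most of it from Nodal and Foxh1 (Foxh1 at 91.7 TPM in H8 and 26.6 TPM in G6). At day 4 the sum was 445 TPM in H8 and 225 TPM in G6, with 2514 TPM in wild type, so both lines were below wild type at the day when it was highest there. Nodal, Cer1 and the Nodal co-factor Foxh1 lie in the runs. Without them the list's median fitted difference (edgeR) was 0.77, against 1.03 with them.

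Genes of extraembryonic endoderm, the tissue that forms the yolk sac lining, leaned the other way, with 10 of 20 members lower in H8 and 0 higher, a median of -0.58, and none of them in a run. Of the 10, Lamb1, Col4a1, Col4a2 and Sparc are matrix genes, Cubn, Amn, Lrp2 and Dab2 serve endocytic uptake, and Pdgfra and Sox7 are a receptor and a transcription factor of the primitive endoderm. Col4a1, a chain of collagen IV, was at 28.3, 16.1 and 88.1 TPM in H8, against 58.5, 82.4 and 231 TPM in G6, and Lamb1, a laminin chain, at 35.3, 70.7 and 82.9 TPM in H8, against 79.3, 116 and 157 TPM in G6. Both were lower in H8 at each day (-1.53, SE 0.27 and -0.88, SE 0.12; adjusted p = 0.21 and 0.146, edgeR). Afp and Ttr of the same list did not share this at day 8. Afp was then at 14.5 TPM in H8 and 5.41 TPM in G6, and Ttr at 13.8 TPM in H8 and 7.39 TPM in G6. Both were near 0 at day 0.

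The germline list had 8 of 20 members lower in H8 and 0 higher, with a median of -0.41. Mael, a piRNA pathway protein, was at 28.3, 20.02 and 11.2 TPM in H8, against 56.6, 44.6 and 31.1 TPM in G6. Hormad1, a meiotic chromosome protein, was at 24.9, 13.5 and 13.3 TPM in H8, against 44.2, 29.9 and 25.9 TPM in G6. Ddx4, the germ cell helicase, was at 11.2, 18.1 and 10.3 TPM in H8, against 24.8, 31.8 and 14.7 TPM in G6. The 3 genes were lower in H8 at each day, with differences of -1.16 (SE 0.16), -0.93 (SE 0.15) and -0.78 (SE 0.15), with adjusted p-values of 0.146, 0.181 and 0.246 (edgeR).

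Glycolysis and hypoxia genes had 10 of 30 members lower and 3 higher, with a median of -0.22. Ldha, lactate dehydrogenase, was at 843, 1885 and 409 TPM in H8, against 2053, 2221 and 600.0 TPM in G6, and Bnip3, a mitophagy receptor, at 202, 296 and 62.9 TPM in H8, against 286, 428 and 85.1 TPM in G6. Of the 3 that were higher, the hexokinase Hk1 (1.14, SE 0.11) and the collagen hydroxylase P4ha1 (0.37, SE 0.14) lie in the run on chromosome 10, and the third is the enolase Eno2 (0.76, SE 0.18).

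Other lists differed mainly at a single day. Cholesterol and fatty acid synthesis genes had 0 of 28 members higher and 1 lower over the 3 days, and a median of -1.11 at day 0, against -0.09 at day 4 and 0.14 at day 8. At day 0, Hmgcs1, which makes the precursor of mevalonate, was at 48.2 TPM in H8 and 179 TPM in G6 (92.3 TPM in wild type). Immediate early and stress genes had 6 of 27 members higher over the 3 days and 0 lower, with Jun, Egr2, Ddit4 and Atf4 of the 6 in the runs, and a median of 0.95 at day 0, against -0.12 and 0.16 later. Fos was at 855 TPM in H8 and 293 TPM in G6 at day 0, and Chac1, a glutathione-degrading enzyme of the integrated stress response, at 138 TPM in H8 and 42.8 TPM in G6. The fibroblast and mesenchyme list had 4 of 25 members higher and 0 lower, with medians of -0.20, 0.14 and 1.05 at day 0, 4 and 8. Its summed level was 1343 TPM in H8 and 688 TPM in G6 at day 8, with 4655 TPM in wild type. Acta2, smooth muscle actin, was at 39.0 TPM in H8 and 2.80 TPM in G6 at day 8. Naive and general pluripotency genes had medians of 0.15 and -0.12 over the days, and Nanog, Sox2, Esrrb and Zfp42 differed by 0.36, -0.11, -0.00 and 0.13, with SE of 0.10 to 0.13.

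**Figure D4:**
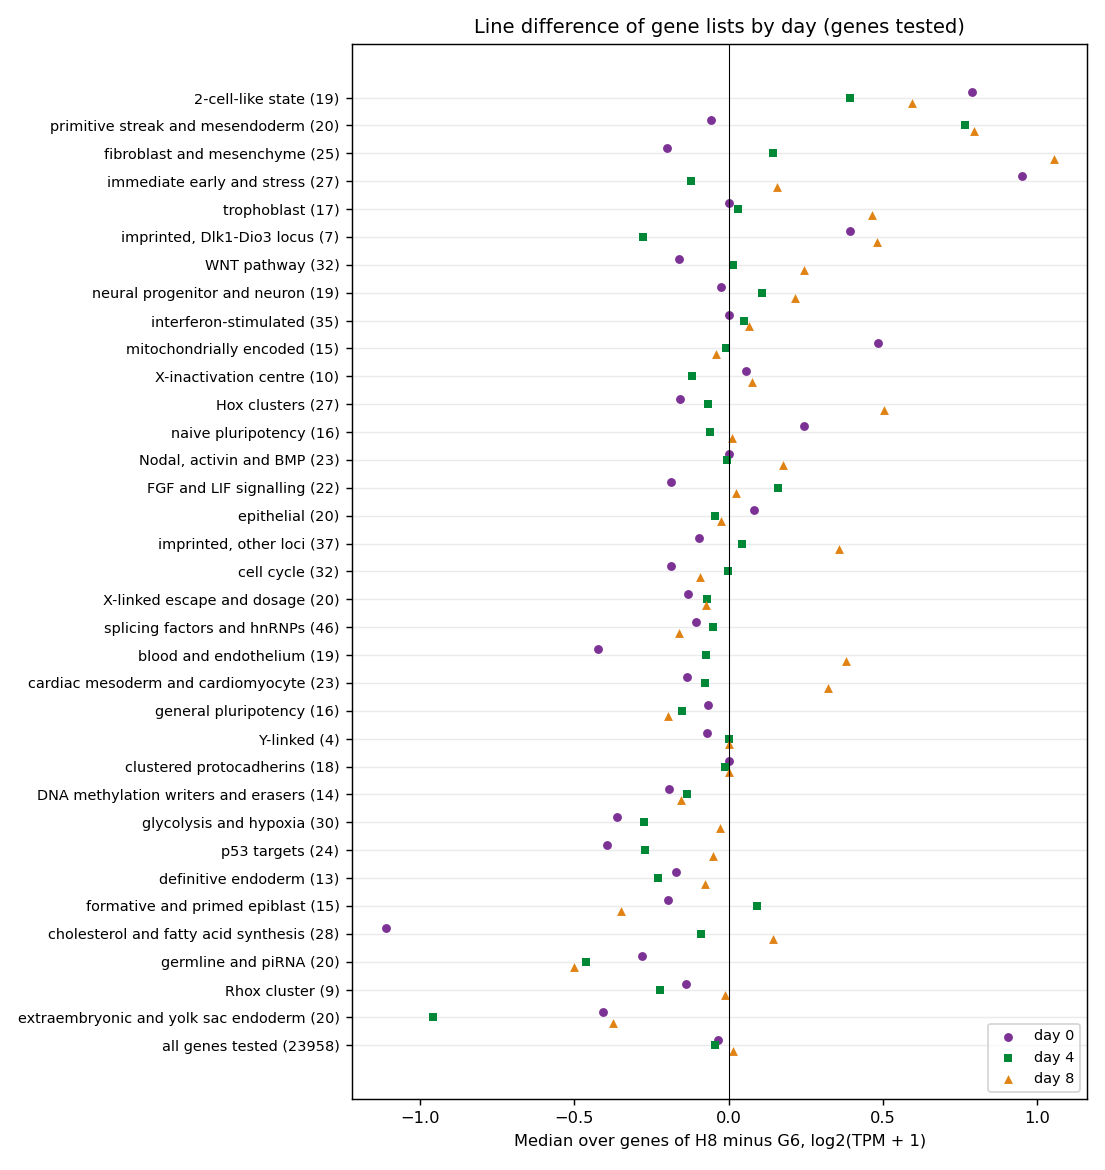
Median line difference (H8 minus G6, log2(TPM + 1)) of each gene list at day 0, 4 and 8, ordered by the fitted difference over the 3 days, with the number of tested genes in brackets and all tested genes in the bottom row. The 2-cell-like list lies right of 0 at all 3 days and the yolk sac and germline lists left of it, while the cholesterol list is at -1.11 at day 0 only.

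Imprinted genes outside the Dlk1-Dio3 locus had a median of 0.04 over the 3 days but included large single differences. Grb10, an imprinted adaptor of growth factor receptors, was at 47.0, 8.23 and 10.7 TPM in H8 at day 0, 4 and 8, against 85.0, 90.3 and 73.3 TPM in G6, with 125, 87.6 and 359 TPM in wild type. Its difference of -2.41 (SE 0.54) did not pass the threshold (adjusted p = 0.285, edgeR). Peg3, a paternally expressed zinc finger gene, was at 18.8, 67.8 and 137 TPM in H8, against 10.7, 49.1 and 65.3 TPM in G6, with 44.9, 248 and 819 TPM in wild type. Meg3, the non-coding RNA of the Dlk1-Dio3 locus, was at 165, 205 and 195 TPM in H8, against 79.5, 232 and 127 TPM in G6, and its neighbours Rian and Mirg differed by 0.37 (SE 0.15) and 0.18 (SE 0.22), without passing the threshold.

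Whether a line difference at day 0 departed from that at days 4 and 8 was tested in the same 6 libraries with 1 residual degree of freedom. The spread in this test is the change of the line difference between day 4 and day 8. The difference at day 0 rests on 1 library per line and has no repeat, so these p-values do not measure repetition over the 3 days. The test called 12 genes (0.0501% of 23958), 11 with a higher H8 to G6 ratio at day 0 (0.0459%) and 1 with a lower one (0.00417%), and 4540 genes (18.9%) had an unadjusted p under 0.05. All 12 calls had an adjusted p of 0.0469 (edgeR), and none was in a run. Apoe, the lipid carrier apolipoprotein, was at 1857, 887 and 858 TPM in H8 at day 0, 4 and 8, against 284, 869 and 783 TPM in G6, so that H8 stood apart at day 0, by 2.71 on the log2(TPM + 1) scale, and the lines lay close together later. Atf3, a stress-induced transcription factor, was at 108, 22.1 and 15.9 TPM in H8, against 10.9, 25.9 and 19.4 TPM in G6. Ephx2, an epoxide hydrolase, was at 111, 50.1 and 44.7 TPM in H8, against 20.7, 60.9 and 52.1 TPM in G6. The departures at day 0 were 2.60 (SE 0.15), 3.65 (SE 0.21) and 2.74 (SE 0.18) on the log2 scale.

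Among the other calls were genes that were low in G6 at day 0 or low in H8 later. The X-linked zinc finger gene Yy2 was at 12.9, 6.21 and 8.87 TPM in H8, against 0.45, 7.503 and 12.8 TPM in G6. Fignl1, a factor of DNA repair, was at 76.5, 7.01 and 15.5 TPM in H8, against 47.9, 40.6 and 67.9 TPM in G6. Tmem127, a membrane protein of endosomes, was at 19.4, 2.77 and 2.96 TPM in H8, against 10.3, 21.3 and 17.0 TPM in G6. Hrk, a BH3-only activator of apoptosis, was at 24.2, 3.61 and 3.75 TPM in H8, against 3.62, 8.54 and 6.86 TPM in G6. Each of these genes had the order of the lines turned round between day 0 and the later days. With limma-voom, total count scaling and the fit with all 9 libraries 0 genes were called, while the departures stayed close in size (Apoe 2.53 to 2.61, Atf3 3.57 to 3.65 and Yy2 5.21 to 5.34).

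**Figure D5:**
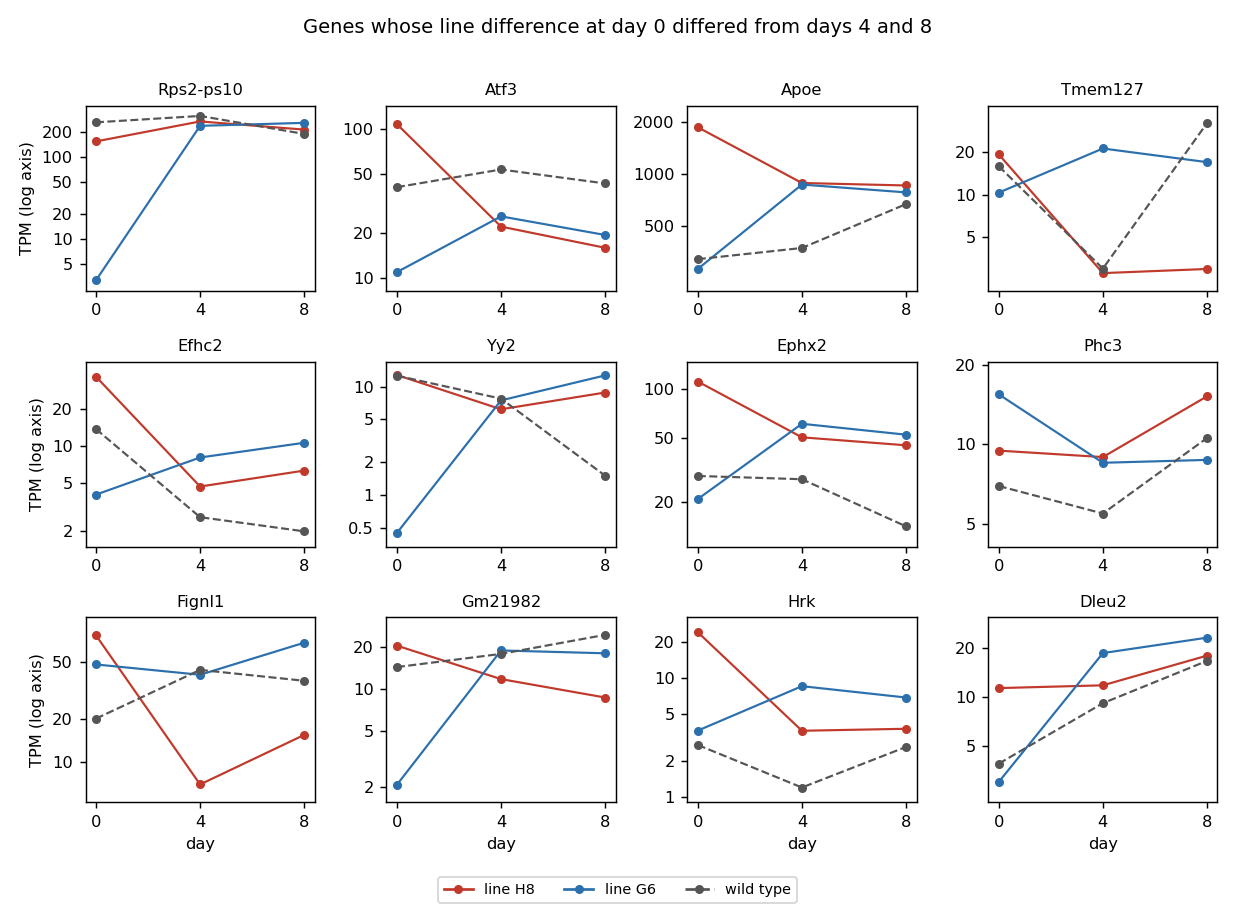
TPM (log axis) at day 0, 4 and 8 in H8, G6 and wild type (dashed) for the 12 genes whose line difference at day 0 departed from days 4 and 8; each point is 1 library. For Apoe, Atf3 and Ephx2 the lines lie apart at day 0 and close together at days 4 and 8.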

How the data were processed

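PolyA+ RNA-seq of 9 libraries was used, 3 of line H8, 3 of line G6 and 3 of wild type. The submitters' processing notes name HISAT2 2.0.5, StringTie 1.3.3b and the mm10 build; which step each served, and whether counting used strand, is not given in the sources used here. Per library the authors deposited whole-number counts per gene, unscaled, and TPM per gene. Low counts (up to 40) fell on multiples of 4 in 42.6% (H8) and 43.5% (G6) of cases at day 0 and in 30.5% to 33.2% in the other libraries, against 25% for evenly spread counts, so that counts may not be single fragments. In each library 259 entries without a gene name (0.024% to 0.04% of counts) were left out. Coordinates and types came from GENCODE M21, which matched all 49326 identifiers. Of 90 genes named by rule or chosen after their values were seen, 54 overlap another gene, and their values are uncertain. The 90 leave out further genes of the text, such as Nodal, Srgn and Zscan4f, and overlap is not given for those.

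A gene was tested if 2 or more libraries reached a CPM of 0.0757, which is 10 counts at the median depth. The fit used edgeR 4.0.16 (TMM, quasi-likelihood, day as block; prior degrees of freedom 3.39) in R 4.3.3 and was tested on simulated data. The block rests on the shared day, which the labels give; the replicates are the days. DESeq2 1.42.0 and limma 3.58.1 served as alternatives, beside other scalings, filters, pseudocounts and each day left out. Differences within a day are log2(TPM + 1), which understates changes of low genes. Genes named were the 12 largest each way over 3 days (filled by size where fewer than 5 passed), the 4 highest and 4 lowest at each day among genes of at least 10 TPM that differed by at most 0.5 at the other days, list members and fixed genes. The comparison and lists were chosen with earlier results of these data known. Of the 34 lists, those not described in the text are in the plot of list medians.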

Additional observations from a re-analysis of the deposited data

Results flagged for a closer look

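The 12 genes whose line difference (H8 over G6, log2) at day 0 differed from that at days 4 and 8 by the test of that difference (edgeR, adjusted p = 0.0469 each) are the results marked for a second look. The departures at day 0 were 5.63 for Rps2-ps10, 3.65 for Atf3, 2.60 for Apoe, 3.92 for Tmem127, 4.07 for Efhc2, 5.28 for Yy2, 2.74 for Ephx2, 3.12 for Fignl1, 4.21 for Gm21982, 3.94 for Hrk and 3.32 for Dleu2, and -3.38 for Phc3. Rps2-ps10, a pseudogene that resembles a ribosomal protein gene, was at 154, 269 and 214 TPM in H8, against 3.17, 238 and 259 TPM in G6. Reads may be split between it and its parent gene, and the value is uncertain. For Phc3, a polycomb protein, counts and TPM did not give the same difference: at day 4 it had 6223 counts in H8 and 1788 in G6, but 8.95 TPM in H8 and 8.52 TPM in G6. Atf3, Efhc2, Yy2, Gm21982, Dleu2, Rps2-ps10 and Phc3 overlap other annotated genes. The day 0 libraries had 61626609 counts in H8 and 54218051 in G6, against 126467666 or more at the later days; the part of depth in these differences was not tested.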

How the results depend on the processing

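The count of genes called between the lines depended on the tool. Against 1 call, DESeq2 gave 817, limma-voom 17, log2(TPM + 0.1) 10, the protein-coding genes alone 9 and all 9 libraries 3, while total count scaling, no filter and log2(TPM + 1) gave 0. Without each day's pair in turn the count lay between 0 (without day 4) and 34 (without day 0). The day block changed no call (1 gene with no replicate block). Of the 17 calls of limma-voom 15 lay in the runs, as did all 10 of log2(TPM + 0.1). The runs were chosen by the same line difference, so these shares carry no test. Wnk3 stayed between -2.75 and -4.14, with an adjusted p between 3.46e-96 and 0.271. For the departure at day 0, against 12 calls, DESeq2 gave 1070, a linear change with day 2, and total count scaling, limma-voom and all 9 libraries 0. Of 523 values of 46 genes under alternatives, 0 changed sign, 41 lost and 79 gained a call. With at least 1 TPM instead of 5, 1554 genes passed 2-fold at day 0 and 380 at day 4. The median of chromosome 4 was 0.15 with CPM, against 0.09 with TPM. Without the genes of the runs, the median fitted difference of the Nodal, activin and BMP list was 0.016 (0.15 with them). That of the interferon list was 0.15 (0.19). Other windows and limits gave 5 or 6 runs, with chromosomes 4, 10, 14 and 15 in each, but chromosome 2 in 1 of the 4 settings. With a limit of 0.2 or 0.25 over 11 genes chromosome 15 held a pair of runs, of 213 and 35 genes at 0.2 and of 72 and 17 at 0.25, against 1 of 362; these settings were added after the data were seen. The causes of these shifts were not tested.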
